A study of Rattus norvegicus with 6 samples.

Results

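The response to low oxygen was followed through 10 genes in the rat hippocampus after the blood supply to the brain had been reduced. They are Hif1a, Epas1 and Hif3a, which encode the alpha subunits of the hypoxia-inducible factors, Egln1 and Egln3, which encode the enzymes that mark those subunits for destruction, and the target genes Car9, Pfkfb3, Adm, Bnip3 and Ddit4. They were chosen by name, and 12 of the 30367 probes on the array carried one of these names, so that they make up 10 of the 17489 named genes measured. RNA came from the hippocampus of male Wistar rats. In 5 groups both common carotid arteries had been tied off for good under isoflurane, a rat model of chronic cerebral hypoperfusion called BCCAo, and tissue was taken at 21, 35, 45, 55 or 70 days. The sixth group, the control, is labelled with no time after occlusion, and the labels do not say whether it had a sham operation. The labels give the 5 occluded groups ages of 13, 14, 15, 16 and 17 weeks in the order of the days, and the control an age of 12 weeks. All groups were hybridised as pooled RNA, and how many rats made up a pool is not stated in the labels.

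Each group had 1 one-colour Agilent array of 60-base probes. No difference below therefore has a replicate check, and no p-value could be computed. The only measured error is technical: 1390 probes were printed 10 times on each array, and the spread between the spots of such probes at the signal level of a member gives the technical SD quoted with its difference. This SD leaves out the variation between rats, between RNA preparations and between hybridisations. Slide 1 carried the day 21, day 35 and control arrays and slide 2 those of days 45, 55 and 70, so that slide and time cannot be told apart for the later days. Signals had 75th percentiles between 1243 and 1504 intensity units, and 74.5 to 80.2% of the spots were well above background. All 10 hippocampal neuron markers checked, among them the neuronal splicing factor gene Rbfox3 and the glutamate transporter gene Slc17a7, were well above background on all 6 arrays. All 10 oxygen-response genes were well above background on all 6 arrays too, and none was saturated.

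Hypoxia-inducible factors are pairs of an oxygen-sensitive alpha subunit and a stable partner, ARNT. In normal oxygen the prolyl hydroxylases of the EGLN family hydroxylate the alpha subunit, which the von Hippel-Lindau protein then recognises for degradation, and in low oxygen the alpha subunit escapes and binds DNA at hypoxia response elements. The control of HIF1A is therefore exerted mainly on the protein, while many of its target genes are read out as mRNA. In brain, such targets include genes of glucose uptake and glycolysis, of acid-base balance, of blood vessel tone and growth, and of mitophagy and growth arrest.

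Of the 10 members 4 differed from the control by 2-fold or more on at least 1 day, and they are introduced here by the sequences that were measured and by their promoters. On a single day, from 1.58% (day 35) to 7.42% (day 70) of all genes compared were 2-fold higher or lower. The share of all genes past 2-fold on at least 1 of the 5 days was not counted. The probes below, which are written in the sense of the mRNA, are shown because these signals carry the lower values described later. The Hif3a probe lies at chr1:77377552-77377611 on the minus strand, the Car9 probe at chr5:59991393-59991452 on the plus strand and the brighter Pfkfb3 probe at chr17:78262283-78262342 on the plus strand, all in build rn4 as the array files give them. Whether a probe lies in a coding part or in a UTR of its transcript was not analysed here.
Hif3a probe: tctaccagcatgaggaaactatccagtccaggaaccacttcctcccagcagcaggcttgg
Car9 probe: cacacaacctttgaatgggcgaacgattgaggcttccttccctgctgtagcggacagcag
Pfkfb3 probe: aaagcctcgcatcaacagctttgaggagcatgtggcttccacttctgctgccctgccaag

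The promoter windows of the same 4 genes run from 250 bases before the gene start to 50 bases after it, as RefSeq places the start in assembly GRCr8, and they are written 5′ to 3′ in the sense of the gene. Capitals mark the core of a hypoxia response element, searched as ACGTG or GCGTG on both strands, so that a core on the other strand reads CACGT or CACGC here. The windows are Hif3a at chr1:86877789-86878088 on the minus strand (the one of its 2 windows that held a core), Car9 at chr5:62558774-62559073 on the plus strand, Pfkfb3 at chr17:71944683-71944982 on the plus strand and Adm at chr1:174179950-174180249 on the plus strand.
Hif3a promoter: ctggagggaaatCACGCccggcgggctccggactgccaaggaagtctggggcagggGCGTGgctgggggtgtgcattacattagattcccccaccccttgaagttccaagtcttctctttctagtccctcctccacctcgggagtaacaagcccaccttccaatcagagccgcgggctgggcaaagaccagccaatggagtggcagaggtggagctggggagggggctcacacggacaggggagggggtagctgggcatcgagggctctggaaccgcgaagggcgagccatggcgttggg
Car9 promoter: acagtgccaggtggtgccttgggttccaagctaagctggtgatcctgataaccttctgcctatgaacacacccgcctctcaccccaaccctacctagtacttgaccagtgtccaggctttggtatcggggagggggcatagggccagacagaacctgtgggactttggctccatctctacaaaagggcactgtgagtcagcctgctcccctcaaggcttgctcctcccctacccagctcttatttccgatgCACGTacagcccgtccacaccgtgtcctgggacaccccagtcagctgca
Pfkfb3 promoter: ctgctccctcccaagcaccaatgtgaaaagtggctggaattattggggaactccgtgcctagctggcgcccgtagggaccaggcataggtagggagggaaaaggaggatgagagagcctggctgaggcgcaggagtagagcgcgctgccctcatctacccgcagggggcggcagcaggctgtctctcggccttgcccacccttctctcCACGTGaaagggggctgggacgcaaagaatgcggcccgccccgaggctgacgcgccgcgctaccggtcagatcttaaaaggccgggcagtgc
Adm promoter: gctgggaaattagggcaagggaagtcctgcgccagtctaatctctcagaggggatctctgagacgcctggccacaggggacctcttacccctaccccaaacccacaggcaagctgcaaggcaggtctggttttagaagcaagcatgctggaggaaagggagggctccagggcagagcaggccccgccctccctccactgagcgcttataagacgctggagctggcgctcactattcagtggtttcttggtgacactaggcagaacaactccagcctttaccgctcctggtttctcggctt
The Pfkfb3 window held the palindrome CACGTG, in which a core can be read on both strands, starting 42 and 41 bases before the gene start. In Car9 a single core, on the other strand, began 1 base after the gene start. The Hif3a window held 2 cores of the GCGTG spelling, 238 and 194 bases before the start. The Adm window held none, as did those of Epas1 and Egln3. Bnip3 had 4 cores, Hif1a 3, and Egln1 and Ddit4 2 each. In all, 7 of the 11 windows of the members held a core, while 41.6% of the 33469 promoter windows in the table had one. For ACGTG alone the counts were 6 of 11 windows of the members and 19.3% of all windows. A core is a match of letters and does not show binding, and a window without one says nothing of sites outside it.

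**Figure D1:**
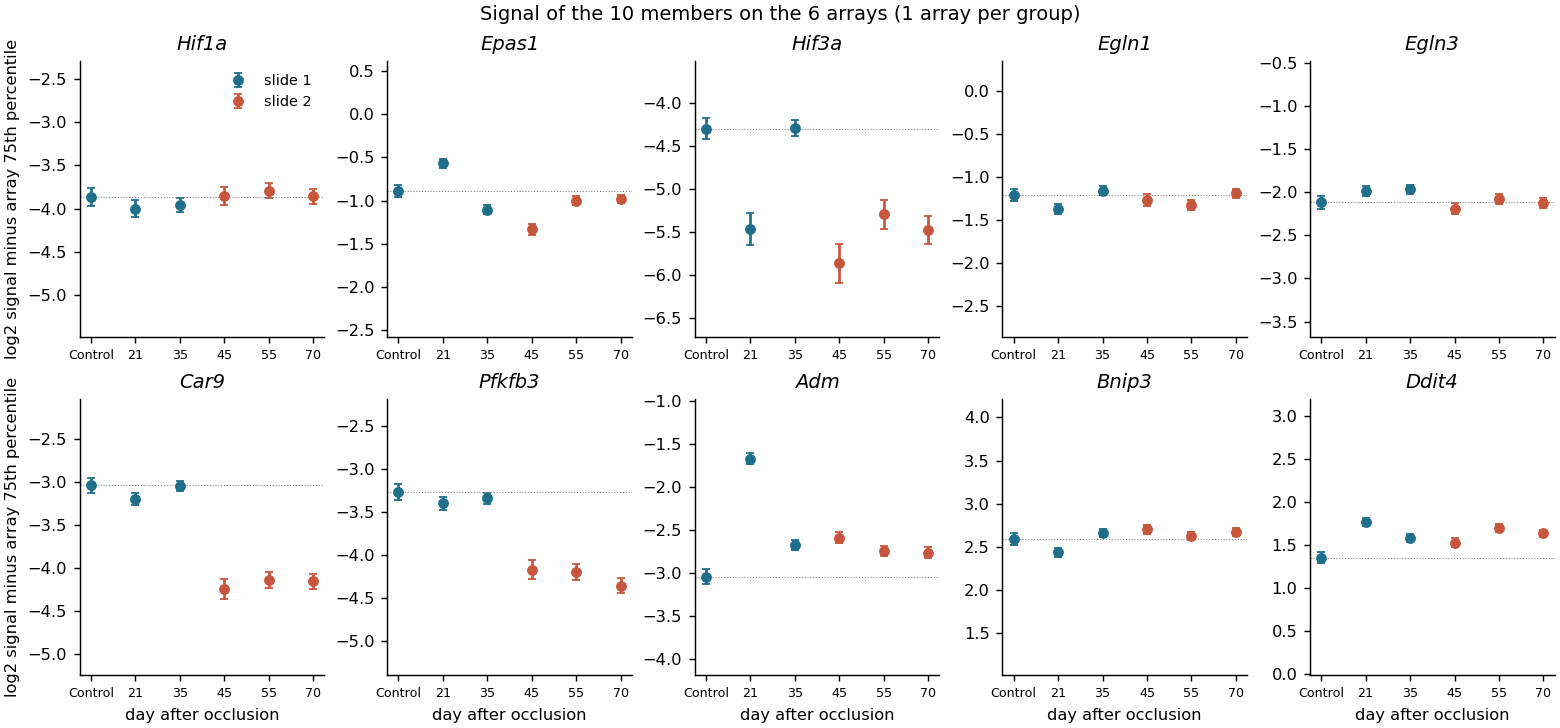
Signal of the 10 members on each array, as log2 signal minus the array's 75th percentile, against the day after occlusion with the control at the left. Points are single arrays coloured by slide, bars are the technical SD at that signal level, and the dotted line is the control's value. All panels span the same number of log2 units. Adm stands high at day 21, Hif3a is low at days 21, 45, 55 and 70, and Car9 and Pfkfb3 are low on the 3 arrays of slide 2.

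The alpha subunit genes behaved unlike each other. Hif1a, the subunit gene found in nearly all cells, was at 90.0 intensity units on the control array and at 77.5, 96.8, 91.7, 92.8 and 95.8 at days 21, 35, 45, 55 and 70. After scaling, its 6 values spanned 0.21 log2 units. The differences from the control were -0.14, -0.09, 0.01, 0.07 and 0.01 on the 5 days in order, each no larger than the technical SD of a difference for a gene at that signal, which was 0.14 at day 21. The later values depended on the scaling: with quantile normalization Hif1a was 0.34, 0.26 and 0.28 above the control at days 45, 55 and 70, and in the authors' deposited values 0.27, 0.24 and 0.27. No setting reached 2-fold. These signals measure mRNA and not the HIF1A protein.

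Epas1 encodes HIF-2 alpha, the subunit prominent in endothelium and in some glial cells. It had 706 intensity units in the control and 838, 699, 527, 642 and 703 on the 5 days. The highest value was that of day 21, 0.32 log2 units above the control, and the lowest that of day 45, 0.44 units below it, with technical SDs of the difference of 0.087 and 0.095. At days 35, 55 and 70 the differences were -0.21, -0.11 and -0.09. No day reached 2-fold.

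Hif3a encodes the third alpha subunit, whose splice forms include inhibitors of the other two. Its probe read 66.7 intensity units in the control and 28.1, 77.1, 22.8, 32.8 and 31.2 at days 21, 35, 45, 55 and 70. The day 21, 45, 55 and 70 arrays were low and the day 35 and control arrays high, with no array between 32.8 and 66.7. The fold was 2.25-fold lower at day 21, 2.96-fold lower at day 45, 1.99-fold lower at day 55 and 2.27-fold lower at day 70, while day 35 differed from the control by 0.01 log2 units. Technical SDs of these differences ran from 0.15 at day 35 to 0.26 at day 45. Of the genes as dim as Hif3a (the dimmest of 3 equal groups by mean signal), 7.36% were 2-fold lower at day 21. The low values were not confined to 1 slide: on slide 1 alone, day 21 was 1.17 below the control and day 35 was 1.18 above day 21. Hif3a was also the dimmest member, between 0.33 and 2.19 log2 units above the lowest signal well above background on its array. Background correction with normexp (a model of signal plus background noise) was run with an offset of 50 intensity units added to each signal. Hif3a read between 22.8 and 77.1 units, so this offset by itself shrinks its differences. Whether the 2-fold calls of Hif3a hold under normexp without the offset was not tested. With the offset they did not hold, and the differences at days 21, 45 and 70 were -0.42, -0.55 and -0.52. In the authors' deposited table they were -0.79, -0.51 and -0.45. With quantile normalization they were -1.22, -0.995 (just short of 2-fold) and -0.73.

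The hydroxylase genes stayed close to the control. Egln1, which encodes PHD2, the main oxygen sensor for HIF1A, had 566 intensity units in the control and 479, 673, 551, 512 and 609 on the 5 days. Its differences were -0.16, 0.05, -0.06, -0.11 and 0.02. Egln3 encodes PHD3 and is itself a HIF target in many cells. Its signals were 303 in the control and 314, 385, 291, 304 and 319 on the 5 days, and its differences 0.13, 0.15, -0.07, 0.04 and -0.00. The largest of these 10 differences, -0.16 for Egln1 at day 21, compares with a technical SD of 0.093. Some signs of these small differences turned with scaling by the array median: Egln3 came to 0.05 and 0.09 at days 45 and 70, and Egln1 to 0.07 at day 45.

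Among the target genes Adm was the member furthest above the control. Adm encodes adrenomedullin, a peptide that widens vessels. It read 159 intensity units in the control and 390, 236, 221, 192 and 205 at days 21, 35, 45, 55 and 70, each a geometric mean of 10 spots. At day 21 the 10 spots lay between 354 and 433 units, against 146 to 177 in the control, so that the spots of the 2 arrays did not overlap. Such spots are repeat prints on 1 array of 1 pooled RNA, and their spread is technical only. The day 21 value was 2.59-fold higher than the control, a log2 difference of 1.37. At days 35, 45, 55 and 70 the differences were 0.37, 0.46, 0.30 and 0.28, above the control on all 5 days. All 5 differences share the same control array, so they are not separate checks. Spots of Adm varied by an SD of 0.054 to 0.095 log2 units on 5 arrays and by 0.264 at day 45, where 1 spot stood at 354 units and the next highest at 240. Without that spot the day 45 mean was -2.66 on the scaled log2 scale, against -3.05 in the control. Of the alternatives of processing, 6 could change the day 21 value, and under all 6 it stayed at least 2-fold higher than its baseline, from 1.00 to 1.41. Set against the mean of the other 5 arrays instead of the control, Adm at days 35, 45, 55 and 70 differed by -0.11, -0.01, -0.20 and -0.22. That mean includes the high day 21 array, which lowers these differences by construction.

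Ddit4 encodes REDD1, an inhibitor of mTORC1 signalling induced by hypoxia and by glucocorticoids. It was the other member above the control on all 5 days, at a smaller distance. As for Adm, these differences share the same control array. The share of all genes above the control on all 5 days was not counted. The Ddit4 probe of 10 spots had 3350 intensity units in the control and 4229, 4510, 3826, 4169 and 4321 on the 5 days. The differences were 0.41, 0.23, 0.18, 0.35 and 0.28, with the largest at day 21. There the 10 spots lay between 4034 and 4397 units, against 3083 to 3619 in the control, again a technical spread only. Over all genes well above background on all 6 arrays, the differences at day 21 had an SD of 0.43. A second, dimmer probe of Ddit4 gave 0.27, 0.11, 0.09, 0.10 and 0.26, above the control on every day and smaller on each. Against the mean of the other 5 arrays in place of the control, the difference of Ddit4 at day 35 was -0.01 and that at day 45 -0.08. That mean includes the other occluded arrays, all of which lay above the control.

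Car9 encodes carbonic anhydrase IX, an enzyme on the cell surface that handles acid and is a widely used hypoxia marker in tumours. Its probe had 160 intensity units in the control and 135, 182, 70.0, 73.1 and 78.1 at days 21, 35, 45, 55 and 70. The 3 arrays of slide 2 lay low and the 3 of slide 1 high. Car9 was 2.31-, 2.14- and 2.17-fold lower at days 45, 55 and 70 than in the control, with technical SDs of 0.12 to 0.14 log2 units, and differed by -0.16 and -0.01 at days 21 and 35. The gap between the highest array of slide 2 and the lowest of slide 1 was 0.94 log2 units, while values varied by 0.11 within slide 2 and by 0.16 within slide 1. With normexp and its offset of 50 units, the later differences of Car9 were -0.73, -0.69 and -0.75. The offset by itself shrinks differences at these signals. In the deposited values the differences were -0.74, -0.79 and -0.73. Both sets lay below the control and under 2-fold.

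Pfkfb3 encodes the enzyme that makes fructose-2,6-bisphosphate, an activator of glycolysis. Its brighter probe had 136 intensity units in the control and 118, 148, 73.6, 70.0 and 67.7 on the 5 days, the same division between slides as for Car9. The differences were -0.13, -0.07, -0.90, -0.93 and -1.09, of which that of day 70 reached 2-fold (2.12-fold lower). That call did not hold with normexp (-0.71), in the deposited values (-0.64), with quantile normalization (-0.82), with median scaling (-0.99) or with the mean of both probes (-0.85). For normexp, the offset of 50 units by itself shrinks differences at these signals. A dimmer probe of Pfkfb3, at chr17:78261280-78261339 in rn4, read 41.6 units in the control and 41.5, 37.9, 24.3, 29.5 and 28.8 on the 5 days. Its differences at days 45, 55 and 70 were -0.79, -0.47 and -0.62, so that both probes were below the control on these days but only the brighter one reached 2-fold. At day 21 the probes had opposite signs, 0.07 for the dimmer and -0.13 for the brighter one. The gap between slides was 0.77 log2 units for the brighter probe and 0.14 for the dimmer.

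**Figure D2:**
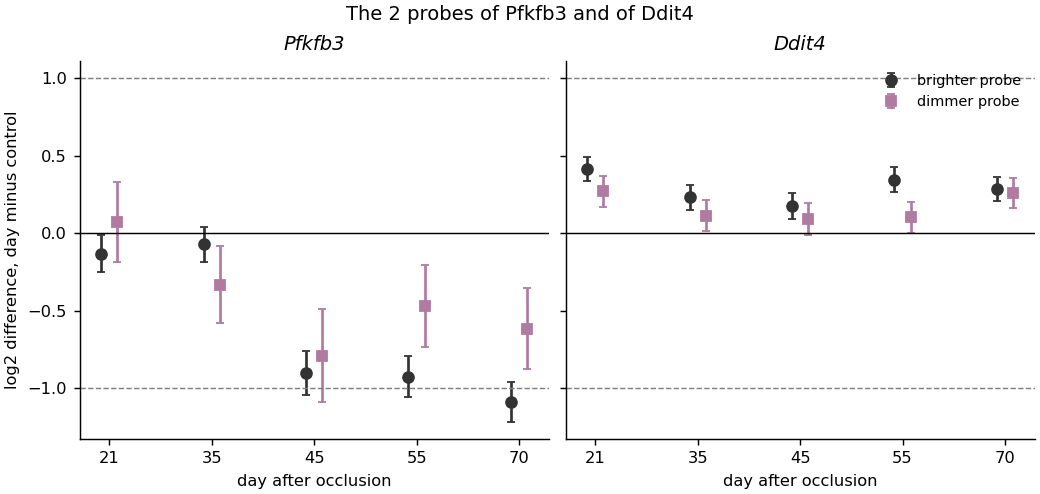
Difference from the control in log2 units on each day for both probes of Pfkfb3 (left) and of Ddit4 (right). Circles are the brighter and squares the dimmer probe, bars are the technical SD of the difference, and dashed lines mark 2-fold. Both Pfkfb3 probes lie below 0 from day 45 on, and both Ddit4 probes lie above 0 on all 5 days.

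Bnip3, which encodes a mitochondrial receptor of mitophagy and a standard HIF1A target, was bright and nearly level. It had 7900 intensity units in the control and 6713, 9500, 8622, 7930 and 8864 on the 5 days. The differences were -0.16, 0.07, 0.11, 0.04 and 0.08, with a technical SD of 0.082 at day 21.

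**Figure D3:**
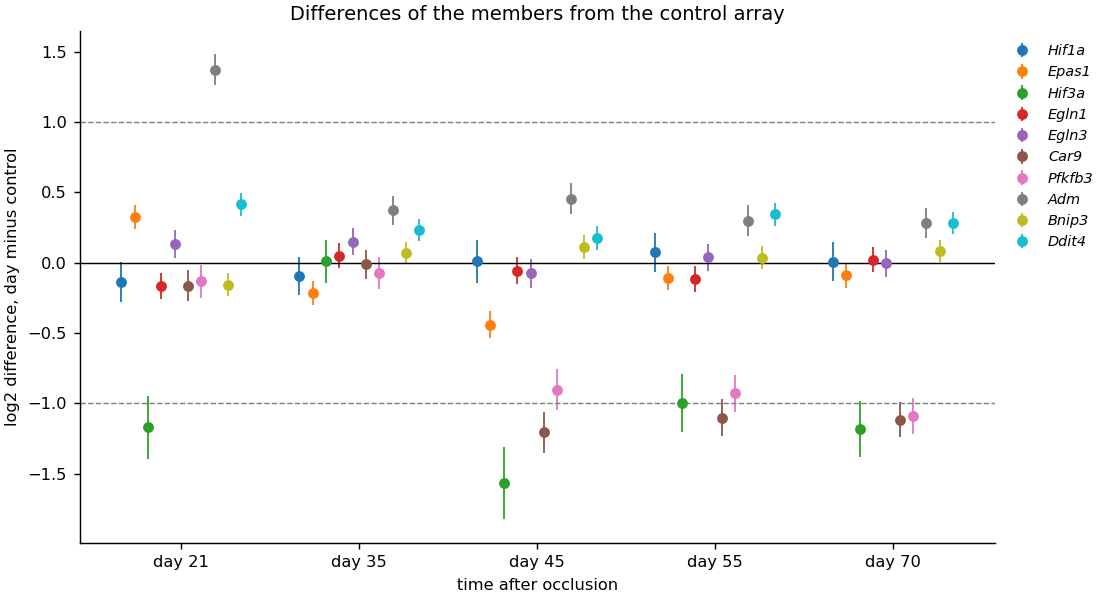
Difference of each member from the control array, in log2 units, on the 5 days. Points are single arrays of pooled RNA against the control array, bars are the technical SD of the difference, and dashed lines mark 2-fold. Adm at day 21 is the one point above the upper line, and the points below the lower line are Hif3a, Car9 and Pfkfb3.

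Counted over all 10 members, 1 was at least 2-fold higher at day 21 (Adm) and 1 at least 2-fold lower (Hif3a), while 3.59% of all genes compared were 2-fold higher and 1.88% lower. No member was 2-fold higher or lower at day 35, where 0.452% of genes were higher and 1.13% lower. At day 45, 2 members were lower (Hif3a and Car9) and 5.77% of genes. At day 55 the 1 lower member was Car9, beside 4.96% of genes, with Hif3a just short of the threshold. At day 70, 3 members (Hif3a, Car9 and Pfkfb3) were lower, beside 6.76% of genes. No member was 2-fold higher on the 3 later days, where 0.595%, 0.65% and 0.662% of genes were. The median difference of the members was -0.13, 0.03, -0.06, -0.04 and 0.00 on the 5 days, against -0.07, -0.04, -0.06, -0.04 and -0.04 for all genes compared.

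These later counts depend on signal level and on the scaling. When all genes were divided into 3 equal groups by mean signal, 20.7%, 19.1% and 25.9% of the genes compared in the dimmest group, which holds Hif3a, were 2-fold lower at days 45, 55 and 70. In the middle group, which holds Car9 and Pfkfb3, the shares were 5.71%, 3.93% and 5.73%. In the brightest group they were 0.19%, 0.121% and 0.173%. With the main scaling, days 45, 55 and 70 had 82, 91 and 92 genes that were higher and 795, 694 and 939 that were lower. With quantile normalization, which forces all arrays to 1 distribution, 196, 182 and 219 genes were higher and 296, 413 and 399 lower. Car9 then differed by -0.92, -0.95 and -0.89 on these days, and no member was 2-fold lower.

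The division between slides was also counted over the whole array. Of 12336 genes, 10.9% had all 3 arrays of days 45, 55 and 70 below all 3 of the control, day 21 and day 35, and Car9 and Pfkfb3 were among them. A gap of at least 0.5 log2 units between the slides, which both of these genes had, occurred in 2.29%. The opposite order was found for 4.4% of genes and for 1 member, Hif1a, whose gap was 0.01. Since each later day was hybridised on slide 2 and the control on slide 1, the part of the slide in the values of Car9 and Pfkfb3 cannot be told apart from that of time. Within slide 2, days 55 and 70 differed from day 45 by 0.11 and 0.09 for Car9 and by -0.03 and -0.19 for Pfkfb3.

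Correlations between members over the 6 arrays are given as a description with no p. Car9 and Pfkfb3, both of which follow the slides, had the highest Pearson value (0.99, Spearman 0.83). Next came Hif3a with Car9 (0.78, Spearman 0.89), Hif3a with Pfkfb3 (0.74, Spearman 0.66) and Adm with Ddit4 (0.72, Spearman 0.49). The lowest was that of Epas1 with Bnip3 (-0.93, Spearman -0.83). Among 1333 genes that were measured on all 6 arrays and spanned at least 1 log2 unit, the 3 closest in pattern to Hif3a were Psgb1 (correlation 0.995), Or1j14 (0.994) and Zfp474 (0.991), and 32 genes lay above 0.95. For Car9 they were Crygf (0.997), Dll4 (0.996) and Gp9 (0.996), with 195 genes above 0.95. Dll4 encodes a Notch ligand of endothelial tip cells, and its scaled values were -5.61, -5.53 and -5.54 on slide 2 and -3.76, -4.10 and -3.99 on slide 1. For Pfkfb3 they were Mansc1 (0.999), Scgb3a1 (0.998) and Phgr1 (0.997), and 197 genes lay above 0.95. For Adm the closest were Tnfaip2 (0.993), Fkbp14 (0.991) and Ecrg4 (0.991), with 91 genes above 0.95. The points share their slide, and for Adm a single high array.

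Other genes of the pathway were taken from lists of HIF partners and regulators, of HIF targets, and of the routes in which the members act. Of 14 partners and regulators, Cited4 alone reached 2-fold. Cited4 encodes a transcriptional co-regulator that binds p300 and CBP. It was well above background on the control and day 35 arrays, the same 2 arrays on which Hif3a was high. Against the control it was at least 2.67-fold lower at day 21, at least 2.77-fold lower at day 45, at least 3.43-fold lower at day 55 and at least 3.50-fold lower at day 70. Cited4 had 1 spot and was dimmer than Hif3a on each array. In the dimmest group by mean signal, 7.36%, 20.7%, 19.1% and 25.9% of genes were 2-fold lower on these 4 days. How the Cited4 calls fared under other processing is not reported. Other members of the list stayed within 2-fold. The differences of Vhl, the von Hippel-Lindau gene, were 0.20, 0.03, 0.05, 0.05 and 0.11, and those of Crebbp, which encodes CBP, -0.64, -0.37, -0.82, -0.36 and -0.79. Arnt2, the neuronal partner gene, differed by between -0.31 and -0.06 on its brighter probe, whereas a dimmer probe gave -1.35 at day 45. The list's medians were -0.16, 0.01, -0.04, 0.02 and -0.02.

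Of 18 HIF targets of glucose use, 16, 15, 15, 16 and 15 could be compared on the 5 days, since Aldoc and Eno1 were saturated on all 6 arrays and Pgam1 on 4. Hk2, the gene of hexokinase 2, was 2.36-fold higher at day 21. At days 45, 55 and 70 it was 1.97-, 2.07- and 1.76-fold lower. These later values, -5.45, -5.53 and -5.29, all lay on slide 2 and below those of slide 1. On slide 1 Hk2 was at -4.48 in the control, -3.24 at day 21 and -4.55 at day 35. No other gene of this list reached 2-fold. Hk1, the gene of hexokinase 1, was much brighter, at 3.68 in the control, and differed by -0.20, -0.06, -0.10, -0.14 and -0.06. Slc2a1, which encodes the glucose transporter GLUT1 and had 10 spots, differed by 0.27, 0.03, 0.11, 0.16 and 0.08. Ldha (lactate dehydrogenase A) had -0.16, 0.04, -0.01, -0.09 and 0.01, and Pdk1, whose kinase shuts pyruvate out of mitochondria, -0.11, -0.13, -0.11, -0.03 and 0.04. Pfkfb4, the close relative of Pfkfb3, had -0.51, -0.21, -0.38, -0.62 and -0.26. The medians of the list were -0.12, -0.06, -0.00, -0.11 and -0.05.

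Of 14 targets that act on vessels, iron and haem, 1 reached 2-fold. Hmox1, the gene of the haem-degrading enzyme heme oxygenase 1, was 2.46-fold higher at day 21 over 10 spots and within 0.18 log2 units of the control on the other days. Vegfa, the gene of the vascular growth factor, differed by -0.10, -0.03, 0.09, 0.15 and -0.14 on its brightest probe, and the largest difference on its 3 other probes was -0.44 (day 45). Epo, the erythropoietin gene, was well above background on 2 arrays. The list's medians were -0.14, -0.09, -0.02, -0.13 and -0.14. Of 18 targets with other cell functions 1 reached 2-fold, Fam162a, a mitochondrial gene responsive to hypoxia, which was at least 2.41-fold lower at day 55 and at least 2.36-fold lower at day 70. Fam162a was well above background on the 3 arrays of slide 1 and within background on those of slide 2. It was dimmer than Hif3a on each array, and 19.1% and 25.9% of genes in the dimmest group were 2-fold lower at days 55 and 70. Bnip3l, the sister gene of Bnip3, differed by -0.09, -0.06, 0.13, 0.03 and 0.11. Ankrd37, a target with 10 spots, had 0.12, 0.33, 0.06, 0.15 and 0.14, and Plin2, which coats lipid droplets, had 0.93 at day 21. The medians of this list were -0.15, 0.01, -0.09, 0.01 and 0.03.

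**Figure D4:**
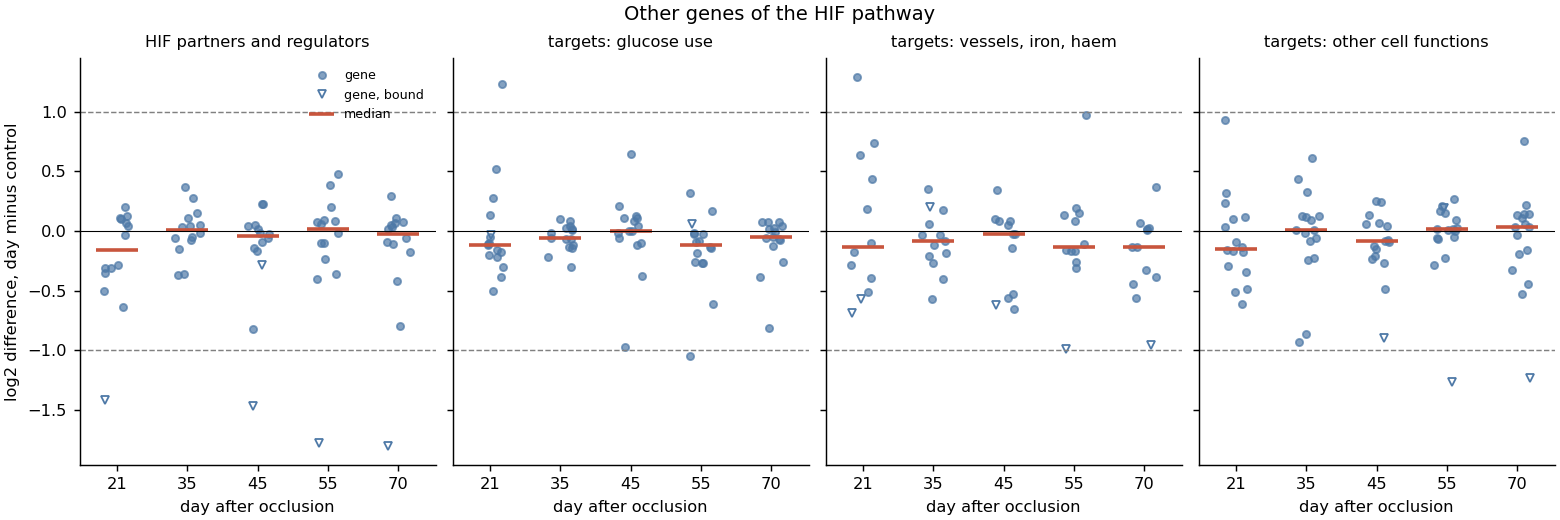
Difference from the control in log2 units on each day for the genes of 4 lists: HIF partners and regulators, and HIF targets of glucose use, of vessels, iron and haem, and of other cell functions. Circles are measured differences, red bars are medians and dashed lines mark 2-fold. Open triangles are bounds, drawn where the signal of 1 of the 2 arrays was within background or, as for Pgam1, saturated. The medians stay within 0.16 of 0, and single genes such as Hk2 and Hmox1 at day 21 and Cited4 on 4 days lie past the lines.

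Genes that work with single members were compared in the same way. Adrenomedullin acts through the receptor encoded by Calcrl together with RAMP proteins. Calcrl was 2.13-fold higher at day 21, the day of the highest Adm signal, while Ramp1, Ramp2 and Ramp3 differed by -0.05, 0.12 and -0.25. Calcrl was dim, with 1 spot at -5.92 in the control, where the lowest signal well above background was -6.36. At day 45 it was not well above background. Of the genes as dim as Calcrl (the dimmest group by mean signal), 9.28% were 2-fold higher at day 21. A link between the Calcrl and Adm values was not tested. Of 9 genes on the route from REDD1 to mTORC1, Sesn2, which encodes the stress-induced inhibitor sestrin 2, was 2.07-, 2.39- and 2.06-fold lower at days 45, 55 and 70, and the others stayed within 2-fold. Sesn2 was divided by slide as Car9 was, at -3.26, -3.46 and -3.29 for the control, day 21 and day 35. Its values on slide 2 were -4.31, -4.52 and -4.30. Slide and time cannot be told apart here either. Mtor itself, with 10 spots, differed by -0.30, 0.01, -0.01, -0.14 and -0.03. Of 11 other carbonic anhydrase genes on the array, Car3 was at least 2.34-fold higher at day 55, where it was well above background on that array alone of the 6, and Car5b 2.03-fold higher at day 70. Car12, the other cell-surface form induced by HIF, differed by -0.51, -0.23, -0.49, 0.01 and -0.45. Of 10 measured glucocorticoid-responsive genes, chosen because Ddit4 is one too, Mt2A was 4.45-fold higher at day 21 and Dusp1 2.24-fold lower at day 21 and 2.10-fold lower at day 45. At day 21 the others measured ran from -0.39 (Zbtb16) to 0.78 (Per1), with Sgk1 at 0.64 and Sult1a1 at 0.46 above Fkbp5 at 0.13 and Tsc22d3 at 0.14. A second probe of Cdkn1a was 1.34 above the control at day 21, while the brighter one differed by 0.20. The medians of the list were 0.17, 0.14, 0.12, 0.16 and 0.13.

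Markers of some other cell types moved with the day on which Adm was highest. In bulk tissue, fewer cells of a type and less RNA per cell cannot be told apart. At day 21, 8 of 12 microglia markers were 2-fold higher, with a median of 1.48, and their summed scaled signal was 69.1 against 26.2 in the control (24.9 to 29.0 on the other 4 occluded arrays). Of 9 meningeal markers 6 were 2-fold higher, with a sum of 8.84 against 3.09 in the control and 2.77 to 3.07 on the other days. Of 10 choroid plexus markers 6 were 2-fold higher at day 21, with a sum of 54.6 against 5.02 in the control. That sum was 28.8 at day 35 and 46.8 at day 70, days on which Adm was at 0.37 and 0.28. These sums come mostly from 1 gene, Ttr, at 5.66, 4.69 and 5.44 on the scaled log2 scale at days 21, 35 and 70. The next brightest choroid plexus marker, Enpp2, was at 1.55, 1.22 and 1.45. Ttr was saturated at day 21, so that its value and the sum of that day are lower limits. Endothelial markers had medians below the control on all 5 days, at -0.31, -0.20, -0.16, -0.11 and -0.17 in order. Their sum was 9.06 in the control and 8.01 to 8.18 on the 5 occluded arrays. At day 21 astrocyte markers had a median of 0.25 and neuron markers of -0.20. All 12 microglia markers were well above background on each array, and of the choroid plexus markers all 10 at days 21, 35 and 70, 5 at day 45, 7 at day 55 and 8 in the control. The part of these cell types in the Adm, Hk2 and Hmox1 values at day 21 was not tested. Red blood cell markers moved with the later days: their medians were -0.93, -0.33 and -0.74 at days 45, 55 and 70, and 2 of 6 were 2-fold lower at day 45. Their summed scaled signal was 35.9, 57.1 and 41.5 on these days against 64.4 in the control. The part of blood in the Hif3a, Car9 and Pfkfb3 values of these days was not tested.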

How the data were processed

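Hippocampal RNA from male Wistar rats was measured on 6 arrays, 1 per group, after extraction with TriPure reagent, pooling and linear amplification, per the labels' protocols. Per the file headers, the authors' scanner files come from Agilent Feature Extraction 10.7.3.1 on design 028282 with probe positions in build rn4, and they hold a background-subtracted processed intensity of each spot in the green channel, with no scaling between arrays. The labels name Cy5 as the dye, which these files do not hold. The authors also deposited a table of intensity values for 41507 spots, whose medians of 298.0 to 298.4 were nearly equal on all arrays. Its making is not described in the labels, and it was used as an alternative only.

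Spots marked as outliers were left out (346 to 470 per array). The log2 processed intensity was scaled by subtracting each array's 75th percentile over non-control spots, and spots of a probe were averaged. Probes were named from RefSeq (GRCr8), 17328 by accession, 2635 by symbol, 718 by synonym and 183 by the name in the file, and 9502 had no name. The Egln1 probe was named from its description in the file. Of several probes of a gene, the one with the highest mean stood for it. A difference is a day minus the control, called at 2-fold. A probe not well above background on 1 of the 2 arrays was set there to that array's lowest signal well above background, or kept its own if higher, which gives a bound. A gene saturated on 1 of the 2 arrays also gave a bound, and genes saturated on both arrays were not compared. The technical SD of a member is the median SD between spots of the probes printed 10 times whose level on that array lay within 0.5 log2 units of it.

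Genes named are the members, genes of the wider lists at least 2-fold from the control or at the ends of a list, and for each member past 2-fold the 3 genes of most similar pattern. Some wider-list genes were named besides for their known roles, after their values were seen. The members and lists were chosen with earlier results of these data known. No test was possible with 1 array per group, and precision is limited by the number of arrays. A planned search for a protein motif in the alpha subunits was not run. Alternatives changed the background correction (normexp, limma 3.58.1 in R 4.3.3, offset 50), the scaling, the source of values, the probe, the filter, the baseline, the outlier spots and the threshold. The calculation was tested on simulated data and run in Python 3.11.15 with numpy 2.4.6 and pandas 2.3.3.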

Additional observations from a re-analysis of the deposited data

How the results depend on the processing

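The number of members at least 2-fold from the control was 2, 0, 2, 1 and 3 on days 21, 35, 45, 55 and 70. Normexp background correction added an offset of 50 units, which by itself shrinks differences of dim signals. With it the number was 1 at day 21 and 0 at days 45, 55 and 70. With quantile normalization it was 0 at days 45, 55 and 70. In the authors' deposited values it was 1 at day 21 and 0 at days 45, 55 and 70, and against the mean of the other 5 arrays likewise 1 and then 0, 0 and 0. Against the day 35 array it was 2 at day 55, and at a threshold of 1.5-fold 3 at day 55. The cause was not tested. The other 42 such counts stayed within 1.5 times of the value given, some of them under settings that could not change any member. Of 540 differences of single members under the alternatives, 429 moved by less than the technical SD of a difference and 111 by more. The 429 include settings that could not change a value, such as the background filters and the kept outlier spots. They are therefore no measure of stability. Of the alternatives, 6 could change Car9 and Hif3a, which have 1 spot each, and 8 could change Pfkfb3. All of these kept Car9 and Pfkfb3 below the baseline at days 45, 55 and 70 and Hif3a at days 21, 45, 55 and 70. The 2-fold call of Car9 was kept under 2 of the 6 on each later day (median scaling and the day 35 baseline) and lost with normexp, quantile normalization, the deposited values and the mean of the other arrays. That of Hif3a was kept under 3, 2 and 2 of the 6 at days 21, 45 and 70, and that of Pfkfb3 at day 70 under 1 of the 8. The other probe of Pfkfb3 and of Ddit4 was an alternative added after seeing the data.

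Over all genes, the reported values had 502, 63, 82, 91 and 92 genes higher on the 5 days in order and 262, 157, 795, 694 and 939 lower. Normexp with its offset of 50 units gave 240, 13, 17, 30 and 39 higher and 29, 37, 108, 77 and 130 lower. The deposited values gave 371, 38, 69, 75 and 74 higher and 115, 69, 147, 173 and 194 lower. Without a filter or bound 781, 202, 185, 349 and 239 were higher and 748, 515, 1963, 1396 and 1908 lower. With genes well above background on all 6 arrays 319, 19, 18, 27 and 25 were higher and 114, 52, 448, 291 and 452 lower. Against the mean of the other 5 arrays 749, 211, 89, 77 and 101 were higher and 13, 25, 157, 70 and 158 lower. Quantile normalization gave 112 higher and 131 lower at day 35, and the day 35 array as the baseline 617 and 143 at day 21. Scaling by the median moved the median of all genes at day 45 to 0.06, against -0.06 as reported. No paired analysis was possible because each group had 1 array, and the slide could not be fitted as a block. Dim signals limit Hif3a and the second Pfkfb3 probe, whose technical SDs were the largest.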
